A study of Mus musculus with 6 samples.

Results

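Of the 36 genes chosen for cholesterol and fatty acid synthesis and its control, 23 had a row among the 10772 rows of the table, and none of the 23 passed the test between DKO and WT cells. The genes were chosen by symbol, from 37 names of which Sc4mol and Msmo1 are the same gene. Earlier results of these data were known at that time. Of the 23, 11 encode enzymes of sterol synthesis, 4 take part in sterol sensing, 2 export cholesterol, 4 build or extend fatty acids and 2 are desaturases. The other 13 genes (Hmgcs1, Mvk, Idi1, Sqle, Lss, Tm7sf2, Hsd17b7, Insig1, Stard4, Acaca, Elovl6, Scd1 and Fads2) had no row and were not analysed here. All rows lay above RPKM 3 in at least 2 libraries, so a gene below that level would not be listed.

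The cells were natural killer T (NKT) cells from mouse thymus, T cells that recognise lipids presented by CD1d. They were sorted as the P1 fraction, which bound the CD1d-PBS-57 tetramer and was negative for CD24, NK1.1 and CD44. The 3 DKO libraries carried the UTX/JMJD3 DKO genotype, a loss of both demethylases of lysine 27 of histone H3, and the 3 WT libraries were wild type. Each group held 2 female libraries (replicates 1 and 2) and 1 male library (replicate 3), all on a mixed C57BL/6 and 129 background and from freshly sorted cells. The labels give no ages, no promoter behind the deletion and no word on whether libraries of a genotype came from separate animals. The p-values thus reflect the spread among these libraries alone, which may be technical.

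Cells make cholesterol from acetyl-CoA through mevalonate, farnesyl diphosphate, squalene and lanosterol. When sterols run low, SCAP carries the SREBP factors (encoded by Srebf1 and Srebf2) to the Golgi for activation, INSIG proteins hold SCAP back when sterols are plentiful, and active SREBPs switch on sterol and fatty acid genes. When oxysterols accumulate, the LXR receptors switch on the exporters ABCA1 and ABCG1. T cells that start to divide are known to raise SREBP-driven lipid synthesis, which they need for new membranes.

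Values were RPKM, reads per kilobase of gene and scaled to the reads of the library. With the counting method and annotation unknown, levels of different genes can be compared only roughly. The smallest steps between values put depth at 34.4, 7.1 and 6.4 M reads in the DKO libraries and at 32.4, 7.2 and 5.0 M reads in the WT libraries (replicates 1, 2 and 3). Replicate 1 of each genotype was therefore deeper, and it also stood apart in those markers of double-positive thymocytes that had a row (Dntt, Cd8b1 and Ptcra of 5 listed), while Rag1 and Rag2 had none. Ptcra was at RPKM 15.3, 0 and 0 in DKO and 8.25, 0.215 and 0 in WT. The sum of Dntt and Cd8b1 was RPKM 229, 12.1 and 4.49 in DKO replicates 1 to 3 and 200.1, 6.63 and 1.92 in WT replicates 1 to 3. DKO replicates 2 and 3 listed the most genes at 0, with 92, 290 and 212 in the DKO libraries and 61, 19 and 88 in the WT libraries. Among these, 4, 28 and 17 in DKO and 6, 5 and 3 in WT averaged at least RPKM 10 in the other libraries. Log2 values correlated at 0.857 to 0.876 among DKO libraries and at 0.913 to 0.954 among WT libraries. All 8 T and NKT cell genes listed had a row. Cd3d, Cd3g and Lck lay between RPKM 326 and 781 in all 6 libraries, Cd3e at 6.00 to 9.81, and Zbtb16, the gene of the NKT cell factor PLZF, at 0.776 to 5.35 in DKO and 2.67 to 3.50 in WT. Cd5 was higher in every DKO library, at 261 to 295 in DKO and 152 to 182 in WT, as was Cd28, at 114 to 134 in DKO and 54.0 to 101.4 in WT. Thy1 was lower in every DKO library, at 38.5, 0.732 and 41.7 in DKO and 149, 270 and 202 in WT. Of the gate's genes, Klrb1c (NK1.1) was at 0.552 to 0.784 in DKO and 3.51 to 10.8 in WT, Cd24a at 0 to 21.6 in DKO and 4.50 to 11.2 in WT, and Cd44 at 0.270 to 4.74 in DKO and 0.829 to 3.73 in WT. B cell, dendritic cell, thymic epithelial, erythroid, adipocyte and hepatocyte markers had no row, and Cd68 was the sole one of 7 macrophage markers with a row. Kdm6a was at 4.97, 5.28 and 3.53 in DKO and 7.06, 4.86 and 1.94 in WT, and Kdm6b at 1.41, 0.978 and 2.59 in DKO and 1.62, 3.12 and 3.65 in WT. The value of a whole gene does not separate deleted from kept exons and so does not check the genotype labels.

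**Figure D1:**
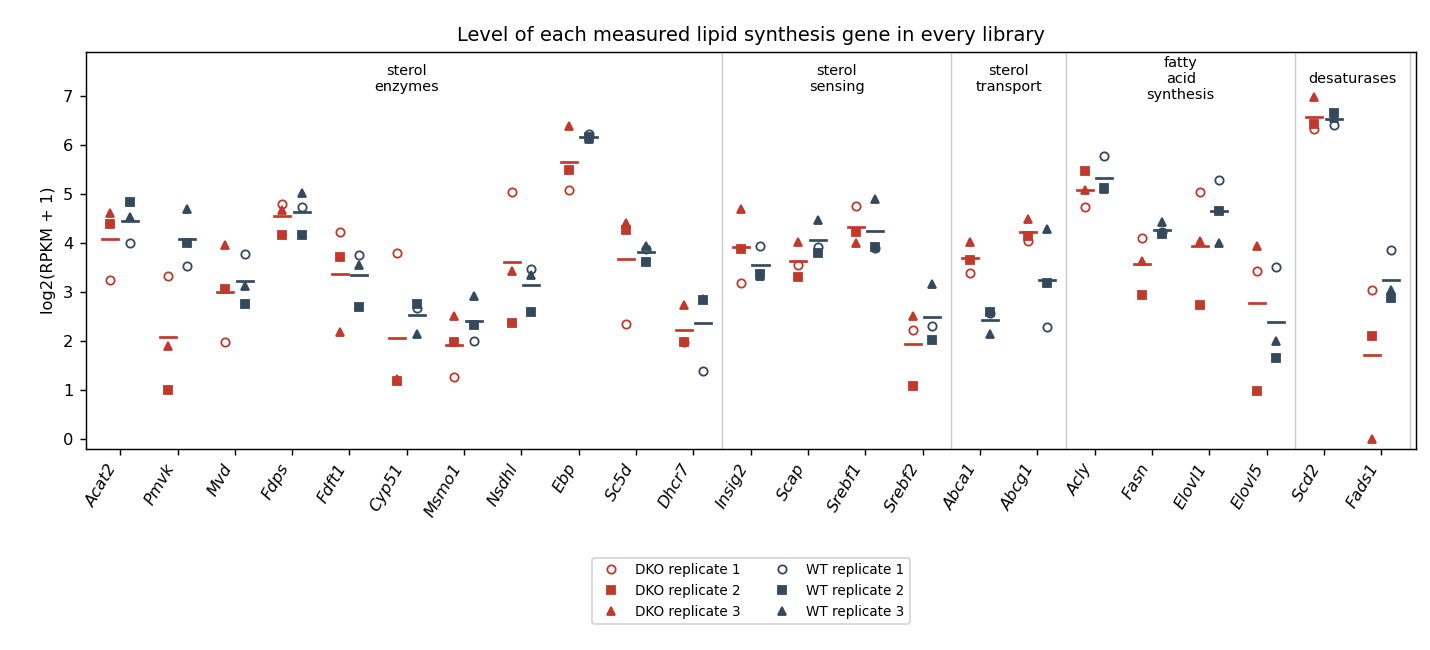
Level of each of the 23 genes as log2(RPKM + 1) (vertical axis) in the 3 DKO libraries (red) and the 3 WT libraries (dark), with a line at each mean and genes ordered by role. The groups overlap for 20 of the 23 genes, and Scd2 and Ebp have the highest means in both genotypes.

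No gene of the set passed at a Benjamini-Hochberg adjusted p of 0.05 in limma, in either direction, and voom, a weighted linear model on the reads behind the RPKM values, also called 0. Among all genes tested 0.0842% passed (0.0748% lower and 0.00935% higher in DKO), 8 genes lower and 1 higher, against 7 and 3 with quantile normalization. At an unadjusted p under 0.05 limma gave 1 of the 23 lower (Pmvk) and 1 higher (Abca1), against 8.14% of all genes lower and 2.88% higher. The DKO and WT values did not overlap for 3 of the 23 (13.0%), lower for Pmvk and Fasn and higher for Abca1, against 17.2% of all genes (11.4% lower and 5.71% higher), so the count lay near the background. The log2 change on log2(RPKM + 1) was below 0 for 15 of the 23 (65.2%), with a median of -0.21, beside 57.1% and a median of -0.11 over all genes tested. Within the deeper pair and without it the log2 change had opposite signs for 12 of the 23 genes (52.2%), beside 37.8% of all genes tested.

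**Figure D2:**
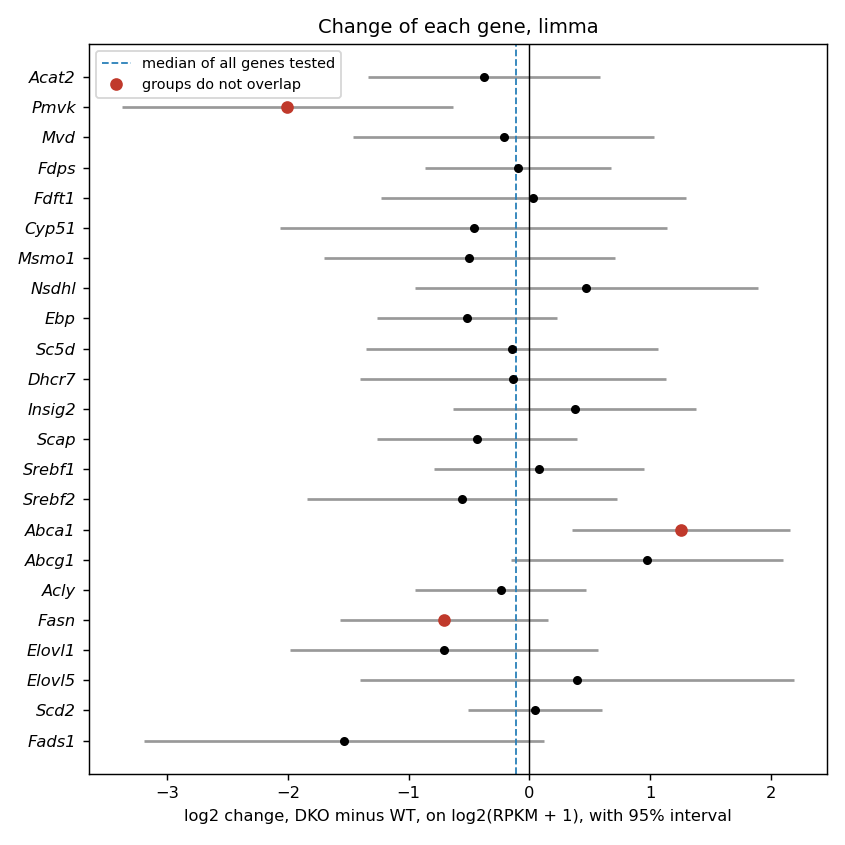
Log2 change, DKO minus WT, of each gene on the log2(RPKM + 1) scale with its 95% interval from limma (horizontal axis). The intervals of Abca1 and Pmvk lie on one side of 0, neither passed after adjustment over all genes, and the dashed line marks the median of all genes tested at -0.11.

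Promoter sequences of the 3 genes whose groups did not overlap are shown because SREBP, NF-Y and LXR are known to act through promoter elements. They are RefSeq windows on GRCm38.p6, matched by symbol, from 250 bases before to 50 bases after the annotated start, printed 5' to 3' along the gene, and they were chosen after the values were seen. The Abca1 window is chr4:53159846-53160145 on the minus strand, the Fasn window chr11:120824498-120824797 on the minus strand and the Pmvk window, the first listed of the gene, chr3:89454291-89454590 on the plus strand. Capitals mark CCAAT boxes, the NF-Y motif, read on either strand.
Abca1: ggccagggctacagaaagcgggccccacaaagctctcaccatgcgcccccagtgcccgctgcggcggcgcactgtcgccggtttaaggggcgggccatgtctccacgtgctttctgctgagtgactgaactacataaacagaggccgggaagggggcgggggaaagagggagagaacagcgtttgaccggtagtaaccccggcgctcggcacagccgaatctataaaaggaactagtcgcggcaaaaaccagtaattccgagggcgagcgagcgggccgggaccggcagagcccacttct
Fasn: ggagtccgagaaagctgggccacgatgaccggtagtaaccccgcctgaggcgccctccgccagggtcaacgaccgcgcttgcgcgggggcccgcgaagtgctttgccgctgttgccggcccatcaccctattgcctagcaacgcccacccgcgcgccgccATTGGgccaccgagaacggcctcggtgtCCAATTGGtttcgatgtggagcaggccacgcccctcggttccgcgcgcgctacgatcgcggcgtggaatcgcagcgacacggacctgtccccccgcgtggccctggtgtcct
Pmvk: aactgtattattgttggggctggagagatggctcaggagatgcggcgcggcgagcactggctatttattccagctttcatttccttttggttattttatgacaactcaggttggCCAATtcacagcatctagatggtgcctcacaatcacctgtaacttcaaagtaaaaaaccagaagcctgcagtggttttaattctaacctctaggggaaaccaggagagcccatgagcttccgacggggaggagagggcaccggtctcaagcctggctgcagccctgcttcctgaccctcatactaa
The Fasn window held 3 CCAAT matches, at -90 to -86, -62 to -58 and -59 to -55 from the start, the last pair overlapping. The printed Pmvk window held 1, at -136 to -132, and the Abca1 window 0. The other Pmvk window, chr3:89459321-89459620 on the plus strand, held 0 and is not printed.

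Of the 23 genes 18 had a promoter in the table, with 27 windows in all. Fdps, Fdft1, Scd2, Fads1 and Abcg1 had none and were not searched. CCAAT (either strand) was in 16 of the 27 windows (59.3%), beside 37.4% of the 32851 promoter windows of the mouse table. These windows belonged to 15 of the 18 genes, for which no share over all genes was counted. Some genes have several windows, which are not independent. The sterol regulatory element, searched as TCACNCCAC on both strands, was in 0 of the 27 windows and in 1.24% of all windows. At so low a share, 0 of 27 does not show a lack of the element. The string does not cover every sterol element, and E-boxes were not searched. With up to 1 base different it was in 9 of the 27 (33.3%), namely in windows of Acat2, Acly, Cyp51, Dhcr7, Elovl5, Insig2, Msmo1, Nsdhl and Srebf2, and in 24.2% of all windows. The LXR element, searched as GGTCA and AGGTCA with 4 free bases between them on both strands, was in 0 of the 27 exactly or with 1 base different, beside 0.0213% and 0.679% of all windows. That search string does not cover every LXR site, and sites with other letters are known in the Abca1 and Fasn promoters. The Abca1 and Fasn windows shared a run of 18 bases, their longest common run, shown because it differs from the searched LXR element in 2 bases.
Abca1 and Fasn: tgaccggtagtaaccccg
It lies at -67 to -50 in the Abca1 window and at -225 to -208 in the Fasn window. Of the 32851 windows, these 2 alone held it on either strand. Since it was picked because both windows share it, that count is not a test. Longest common runs of windows not printed here were not looked for. The run was looked for after the values were seen. The printed Pmvk window came within 3 bases of the searched LXR element. How many of all windows come within 2 bases of it was not counted. A match is only a match of letters in these windows.

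Abca1 (ENSMUSG00000015243), whose product moves cholesterol and phospholipid out of the cell, was higher in every DKO library. It was at RPKM 9.47, 11.6 and 15.2 in DKO replicates 1 to 3 and at 4.89, 5.05 and 3.39 in WT replicates 1 to 3. The lowest DKO value, 9.47, was above the highest WT value, 5.05, while the DKO values themselves ran from 9.47 to 15.2. The means were 12.1 ± 2.90 in DKO and 4.44 ± 0.918 in WT (SD, n = 3 each). On the log2 scale DKO was higher by 1.26 ± 0.41 (SE, 95% interval 0.35 to 2.16, limma unadjusted p = 0.0114, adjusted p = 0.279). Behind these values lay 3343, 844 and 1006 reads in DKO and 1625, 375 and 175 reads in WT. By mean level Abca1 ranked 12 of the 23 genes in DKO and 23, the lowest, in WT. Its log2 change was 0.83 within the deeper pair and 1.47 without that pair, and 0.94 in the female libraries and 1.89 between the male libraries.

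Abca1 is also known from macrophages. Cd68, the sole listed macrophage marker with a row, was at RPKM 0, 0 and 3.08 in DKO and 8.85, 5.82 and 4.26 in WT. Behind the DKO values lay 0, 0 and 25 reads. The part of macrophages in the Abca1 values was not tested. In libraries from many cells, fewer cells of a type and less RNA per cell cannot be told apart.

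Abcg1 (ENSMUSG00000024030), an exporter that passes cholesterol to lipoproteins, had a higher mean in DKO cells yet overlapped between the genotypes. It was at RPKM 15.5, 16.7 and 21.5 in DKO replicates 1 to 3 and at 3.84, 8.12 and 18.6 in WT replicates 1 to 3. The DKO libraries lay close together, while the male WT library was as high as the DKO ones and the female WT libraries were below them. DKO minus WT was 0.97 ± 0.50 on the log2 scale (SE, 95% interval -0.15 to 2.10, limma adjusted p = 0.519), and it was 0.49 without WT replicate 1, 0.58 without the deeper pair and 0.20 between the male libraries. The sum of Abca1 and Abcg1 was RPKM 24.9, 28.4 and 36.7 in DKO and 8.73, 13.2 and 21.9 in WT.

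**Figure D3:**
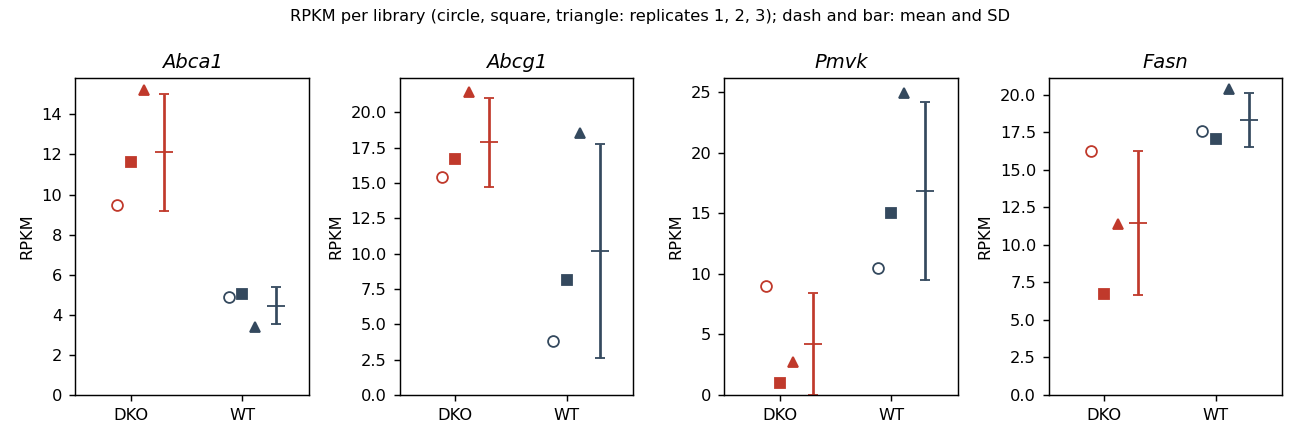
RPKM (vertical axis) of Abca1, Abcg1, Pmvk and Fasn in DKO (red) and WT (dark) libraries, with circles, squares and triangles for replicates 1, 2 and 3 and the mean with SD beside them. Abca1 is higher and Pmvk and Fasn are lower in every DKO library, while for Abcg1 the male WT library, at 18.6, lies among the DKO values.

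Genes of the receptors that drive these exporters were among the other lipid pathway genes. Nr1h2, which encodes LXR beta, was at RPKM 88.0, 66.7 and 47.7 in DKO and 88.1, 61.7 and 75.4 in WT, and the groups overlapped. Nr1h3, which encodes LXR alpha, was at 11.1, 0.723 and 5.63 in DKO and 0.359, 1.48 and 0.370 in WT. DKO replicates 1 and 3 were above all WT libraries and DKO replicate 2 was within their range (log2 change 1.63, limma adjusted p = 0.480). Rxra, whose product pairs with LXR, was lower in every DKO library, at 7.03, 6.98 and 8.40 in DKO and 11.5, 12.9 and 11.6 in WT (log2 change -0.62, limma adjusted p = 0.562). Rxrb, of the same family, was at 23.0, 16.8 and 9.35 in DKO and 10.7, 11.9 and 12.1 in WT, which overlapped (log2 change 0.39). The known LXR targets Mylip, Lpcat3 and Apoe and the lipid transporter Abca7 overlapped between the genotypes, with log2 changes of 0.30, 0.08, -0.59 and 0.13. Mylip, whose product degrades the LDL receptor, was at 49.9, 38.0 and 34.4 in DKO and 36.9, 26.5 and 35.2 in WT, which overlapped. These genes other than Nr1h3 were picked for mention after their values were seen.

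The enzymes of sterol synthesis are described in pathway order. Acat2, which joins acetyl-CoA units, was at RPKM 8.46, 19.8 and 23.5 in DKO and 14.9, 27.4 and 22.1 in WT, and the groups overlapped. Its 3' end overlaps that of Tcp1 on the other strand and it has a close relative, Acat3, so with the counting method unknown its reads may be shared.

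Pmvk (ENSMUSG00000027952), the kinase that phosphorylates mevalonate phosphate, was lower in every DKO library. It was at RPKM 8.97, 0.990 and 2.72 in DKO replicates 1 to 3 and at 10.5, 15.0 and 24.9 in WT replicates 1 to 3. Replicates 2 and 3 of DKO were far below all WT libraries, while DKO replicate 1 lay just under the lowest WT value. DKO minus WT was -2.01 ± 0.61 on the log2 scale (SE, 95% interval -3.37 to -0.64, limma unadjusted p = 0.00864, adjusted p = 0.265). Only 352, 8 and 20 reads stood behind the DKO values, against 388, 124 and 143 reads in WT. The log2 change was -0.21 within the deeper pair and -2.90 without that pair, so most of the difference lay in the shallower libraries.

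Mvd, the decarboxylase that yields isopentenyl diphosphate, was at RPKM 2.94, 7.31 and 14.6 in DKO and 12.6, 5.70 and 7.73 in WT, and the DKO values spanned those of WT. Its log2 change was -1.79 within the deeper pair and 0.57 without it. Fdps, which makes farnesyl diphosphate and has pseudogene copies, was at 26.9, 16.8 and 24.4 in DKO and 25.8, 16.8 and 31.3 in WT. Its levels nearly coincided, with a log2 change of -0.09 (95% interval -0.86 to 0.68), so a change of 2-fold, 1 on the log2 scale, lay outside the interval. Fdft1, the squalene synthase, was at 17.6, 12.05 and 3.54 in DKO and 12.5, 5.48 and 10.7 in WT, with a log2 change of 0.46 within the deeper pair and -0.18 without it.

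Cyp51, the lanosterol demethylase, was at RPKM 12.8, 1.27 and 1.32 in DKO and 5.33, 5.78 and 3.42 in WT. DKO replicate 1 was above every WT library and the other two DKO libraries were below every WT library. Its log2 change was 1.12 within the deeper pair and -1.26 without it, and 39 and 37 reads lay behind the low DKO values. Nsdhl, a C4 demethylation enzyme, was likewise highest in DKO replicate 1, at 32.1 against 4.17 and 9.67 in DKO replicates 2 and 3 and 10.1, 5.01 and 9.21 in WT. Leaving out DKO replicate 1 changed the sign of its log2 change, which was 0.47 with all libraries and -0.25 without that library.

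Msmo1 (Sc4mol in the file), which acts on the same C4 methyl groups, had the lowest mean of the 23 genes in DKO, at RPKM 1.39, 2.94 and 4.68 in DKO and 2.98, 4.01 and 6.53 in WT. Ebp, the sterol isomerase, ranked 2 in both genotypes, at 32.8, 44.1 and 82.9 in DKO and 73.8, 70.6 and 68.8 in WT. The WT libraries lay within 5 RPKM of each other, whereas both female DKO libraries were below them and the male DKO library was above (log2 change -0.52, 95% interval -1.26 to 0.23, limma adjusted p = 0.603). Sc5d, the lathosterol desaturase, was lowest in DKO replicate 1, at 4.05, with 18.1 and 20.3 in DKO replicates 2 and 3 and 13.8, 11.2 and 14.4 in WT, and its log2 change was -1.55 within the deeper pair and 0.56 without it. Dhcr7, which completes cholesterol, was at 2.94, 2.91 and 5.62 in DKO and 1.59, 6.13 and 6.28 in WT, with a log2 change of 0.60 within the deeper pair and -0.50 without it.

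Summed over the 11 sterol enzymes the level was RPKM 151, 130.4 and 193 in DKO and 184, 173 and 205 in WT, and the groups overlapped. The log2 change was below 0 for 9 of the 11, beside 57.1% of all genes, and 1 of the 11 (9.09%) had groups that did not overlap, beside 17.2%. Their median was -0.21, between -0.52 and -0.22 with 1 library left out and -0.59 with voom. The 30 listed cell division genes, a programme during which lipid synthesis is known to be raised, summed to 835, 432 and 704 in DKO and 2096, 1388 and 1285 in WT. All 30 had a log2 change below 0, with a median of -1.38, and 0 passed adjustment. The groups of 18 did not overlap, beside 11.4% of all genes lower, and 20 were at an unadjusted p under 0.05 in limma, beside 8.14% lower. The part that division plays in the sterol enzyme values was not tested.

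**Figure D4:**
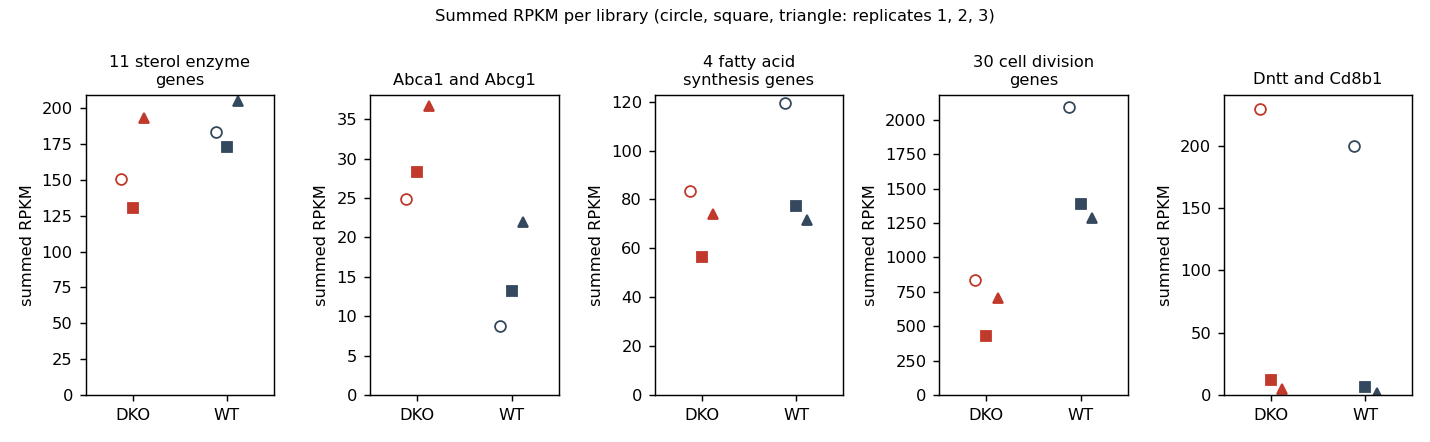
Summed RPKM (vertical axis) in each DKO (red) and WT (dark) library for 3 groups of lipid genes, for the listed cell division genes and for the double-positive thymocyte genes Dntt and Cd8b1. The sums do not overlap for Abca1 with Abcg1, although Abcg1 alone overlaps, and for cell division. They overlap for sterol enzymes and fatty acid synthesis, and the thymocyte genes are high in replicate 1 of both genotypes.

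The genes of sterol sensing overlapped between the genotypes for 4 of 4, as did most genes tested (17.2% of all genes did not overlap). Srebf1 was at RPKM 26.1, 17.6 and 14.9 in DKO and 13.9, 14.2 and 28.9 in WT, a log2 change of 0.08 (95% interval -0.79 to 0.95). It was higher in DKO within the deeper pair, by 0.87, while it was -0.31 without that pair and -0.91 between the male libraries. Srebf2, the factor of the sterol branch, was at 3.63, 1.10 and 4.72 in DKO and 3.91, 3.07 and 7.96 in WT, a log2 change of -0.56 (95% interval -1.85 to 0.72). Scap was at 10.8, 8.85 and 15.2 in DKO and 14.2, 12.8 and 21.0 in WT, and Insig2, which retains SCAP in the endoplasmic reticulum, at 8.08, 13.7 and 24.9 in DKO and 14.4, 9.29 and 8.97 in WT. For Insig2 the log2 change was -0.76 within the deeper pair and 0.94 without it. Srebf1 had the higher mean of the SREBP genes in both genotypes, at 19.5 ± 5.88 in DKO and 19.0 ± 8.60 in WT, against 3.15 ± 1.86 in DKO and 4.98 ± 2.61 in WT for Srebf2 (SD, n = 3 each).

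Fasn (ENSMUSG00000025153), the fatty acid synthase, was lower in every DKO library. It was at RPKM 16.2, 6.70 and 11.4 in DKO replicates 1 to 3 and at 17.6, 17.0 and 20.4 in WT replicates 1 to 3. The highest DKO value lay just below the lowest WT value, and the WT libraries were close together. DKO minus WT was -0.71 ± 0.38 on the log2 scale (SE, 95% interval -1.57 to 0.15, limma adjusted p = 0.536), with 5556, 471 and 731 reads in DKO and 5655, 1226 and 1021 reads in WT. It was -0.11 within the deeper pair and -1.01 without that pair.

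Acly, which supplies acetyl-CoA from citrate, was at RPKM 25.4, 43.0 and 33.0 in DKO and 53.5, 33.8 and 33.3 in WT, and its log2 change was -0.24 (95% interval -0.95 to 0.47), or -1.04 within the deeper pair and 0.16 without it. Elovl1, which extends very long saturated chains, was at 31.9, 5.62 and 15.4 in DKO and 37.9, 24.2 and 14.9 in WT. Elovl5, which extends polyunsaturated chains, was at 9.82, 0.966 and 14.2 in DKO and 10.4, 2.14 and 3.00 in WT, and its highest and lowest DKO libraries differed by 14.7-fold. For Elovl5 the log2 change was -0.08 within the deeper pair and 0.63 without it. The 4 fatty acid synthesis genes summed to 83.4, 56.3 and 74.1 in DKO and 119, 77.2 and 71.6 in WT, which overlapped.

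Scd2, the desaturase that makes monounsaturated fatty acids, had the highest mean RPKM of the 23 genes in both genotypes and hardly differed. It was at RPKM 79.0, 85.3 and 125 in DKO and 83.5, 99.1 and 92.4 in WT, with a log2 change of 0.05 (95% interval -0.51 to 0.60). Fads1, the delta-5 desaturase of polyunsaturated fatty acids, was at 7.23, 3.28 and 0 in DKO and 13.4, 6.29 and 7.17 in WT. DKO replicate 1 lay within the WT range, and the 0 of the male DKO library stood beside 847 and 79 reads in the other DKO libraries and 1479, 155 and 123 in WT. A count of 0 there allows up to RPKM 0.137 (3 reads, counting error only). The log2 change was -1.54 ± 0.74 (SE, limma adjusted p = 0.492) and -0.79 in the female libraries.

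The spread within a genotype was larger in DKO for most of these genes. The SD of log2(RPKM + 1) over the 3 libraries was larger in DKO for 18 of the 23 (78.3%), with medians of 0.73 in DKO and 0.47 in WT. Over all genes tested the same held for 65.4%, with medians of 0.50 in DKO and 0.37 in WT. DKO replicates 1 and 2 each held the lowest value of 8 of the 23 genes, beside 17.3% and 28.2% of all genes. The male DKO and male WT libraries each held the highest value of 8, beside 17.2% and 12.3% of all genes. The 95% interval stayed within 1 log2 unit on both sides of 0 for 4 of the 23 (Acly, Fdps, Scd2 and Srebf1), and for the other 19 a 2-fold difference could not be seen as absent at this precision. Fewer than 50 reads lay behind at least 1 value for 8 of the 23 genes. In limma's test of the genotype by sex interaction 0 of the 23 passed and 0 were at an unadjusted p under 0.05, against 0% and 2.74% of all genes. With 1 male library per genotype and 2 residual degrees of freedom, that test leaves it unknown whether the changes differ by sex.

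Of 82 further genes of the same pathways, listed for comparison, 50 had a row, and 0 passed adjustment. At an unadjusted p under 0.05 limma gave 2 lower and 1 higher, beside 8.14% and 2.88% of all genes. The groups did not overlap for 7 of the 50 (5 lower and 2 higher), beside 17.2% of all genes. For 28 of the 50 the log2 change was below 0, with a median of -0.07. Fdxr, which passes electrons to mitochondrial sterol hydroxylases, was at RPKM 8.10, 12.6 and 10.3 in DKO and 32.0, 17.5 and 21.8 in WT (log2 change -1.11, limma adjusted p = 0.284). Hacd2 (Ptplb in the file), a dehydratase of chain extension, was at 30.3, 28.5 and 31.1 in DKO and 13.3, 20.1 and 18.1 in WT (log2 change 0.79, limma adjusted p = 0.366). The groups of both genes did not overlap.

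Tmem97, an SREBP target that binds the cholesterol transporter NPC1, was at RPKM 0.0222, 13.4 and 0 in DKO and 30.3, 9.39 and 8.03 in WT. DKO replicates 1 and 3 were at or near 0 while DKO replicate 2 lay within the WT range. Nus1, of dolichol synthesis, was at 2.87, 0 and 2.11 in DKO and 5.13, 4.24 and 5.75 in WT, and did not overlap. Npc1, which exports cholesterol from lysosomes, was at 8.15, 13.8 and 4.58 in DKO and 19.9, 13.4 and 13.6 in WT, with DKO replicate 2 within the WT range.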

How the data were processed

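RNA was sequenced from 6 libraries of sorted thymic NKT P1 cells, 3 DKO and 3 WT. Per the labels' protocols libraries were made with an indexed Illumina kit, and the submitters' processing notes name Bowtie and mm9. No source used here gives the Bowtie version, the counting method, strand use or the annotation. The authors deposited RPKM values and gene lengths, 1 column per library. Column names were matched to sample titles. Replicate 1 columns are named only by set and genotype, and the description of the first female DKO sample says 2 where its title says 1. Replicate 1 therefore stands for the column of set 1, and which female DKO sample it belongs to rests on the title.

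RPKM times length gave whole reads (within 0.05) for 99.6% to 100.0% of values, and reads after amplification are not independent molecules. Symbols came from GENCODE M21 (9918 of 10772 identifiers matched), of rows with the same symbol the one with the highest mean was kept (10755 genes), and 10694 genes with RPKM of at least 1 in 3 libraries were tested, all 23 described genes among them. Log2(RPKM + 1) was fitted with limma 3.58.1 in R 4.3.3 (eBayes with trend, 4 residual degrees of freedom). Adjustment was by Benjamini-Hochberg over all genes, with a threshold of 0.05, and with 95% intervals for single genes. Log2 changes are on that scale, which understates changes of low genes. The deposited unit is RPKM, so no count model was run, and voom on the recovered reads was an alternative. The fit was also run on simulated counts with known changes and the same dispersion for every gene and both genotypes. That setting lacks the larger spread of the DKO libraries, so it does not measure the power or error rate of the test in these data. Values and figures were prepared in Python 3.11.15 (pandas 2.3.3, numpy 2.4.6, matplotlib 3.10.9).

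The genes, lists, tests and motifs were chosen with earlier results of these data known, and lists serve only as descriptions. Genes given library by library were all 23, the 6 further pathway genes with the smallest p, Kdm6a and Kdm6b. Nr1h2, Rxra, Rxrb, Mylip and the markers Ptcra, Thy1 and Cd68 were added after their values were seen.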

Additional observations from a re-analysis of the deposited data

How the results depend on the processing

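None of the 23 genes passed adjustment under any of the alternatives that gave a test (smallest adjusted p 0.122, Pmvk without DKO replicate 1), and unadjusted counts were 1 to 5 lower and 1 to 2 higher, beside 5.15% to 10.5% and 2.04% to 5.26% of all genes (5 lower without DKO replicate 1). Of 506 single-gene log2 changes under 22 alternatives, 48 had the other sign, from 15 of the 23 genes. Abca1, Abcg1, Fads1, Fasn, Msmo1, Pmvk, Scap and Srebf2 were not among these. Leave-one-out ranges of the median log2 change were -0.38 to -0.11 for all 23, -0.52 to -0.22 for sterol enzymes, -0.32 to 0.02 for sterol sensing, 0.90 to 1.30 for Abca1 and Abcg1, -0.52 to -0.20 for fatty acid synthesis and -1.01 to -0.42 for desaturases. The desaturase median was -1.31 with a pseudocount of 0.1, -1.36 with voom and -1.30 between male libraries, where that of sterol sensing was -0.54, and voom gave -0.59 for sterol enzymes. Genes whose groups did not overlap numbered 2 to 5 lower and 1 to 3 higher when 1 library was left out (4 lower without DKO replicate 1, 5 lower without DKO replicate 3, 3 higher without WT replicate 3), beside 15.2% to 20.3% and 8.08% to 11.97% of all genes, and 5 lower and 3 higher both without the deeper pair (26.5% and 17.3% of all genes) and in female libraries (22.9% and 14.3%), where fewer samples make overlap rarer. The cause of the other shifts was not tested.

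Over the whole table, limma called 8 lower and 1 higher. The counts were 15 and 2 with a pseudocount of 5, 20 and 4 with array weights, 0 and 0 with voom (1115 and 562 at an unadjusted p under 0.05), 1 and 0 without the deeper pair and 0 and 0 in female libraries (596 and 238 unadjusted). The higher calls were 0 with a pseudocount of 0.1 (300 unadjusted), 3 with quantile normalization and 2 each with median log2 ratio scaling, a stricter filter, no variance trend and sex as covariate. Leaving out 1 library gave 0 to 13 lower and 0 to 2 higher, with 13 lower without DKO replicate 1, 2 without WT replicate 1 and 0 without WT replicate 2 or 3 (595 and 551 unadjusted). The median of all genes was -0.11, but 0.01 with quantile normalization and -0.01 with median log2 ratio scaling, where the median of the 23 genes was -0.15 and -0.11.

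With the replicate number as a block, the counts were 8 and 1, and 0 of the 23 passed, with 2 lower and 2 higher at an unadjusted p under 0.05. The numbers were not taken to pair the libraries, since the labels state no pairing, though both replicate 1 columns carry the name of set 1. Deviations from the group means correlated at 0.226, 0.146 and 0.0752 for replicates 1, 2 and 3, and every library correlated best with its own number. Whether the libraries were paired is therefore not known. The sterol element was found in 9 windows once 1 base could differ, an alternative added after seeing the data. Precision is limited by 3 libraries a group and by the depth of replicates 2 and 3.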
